A study of Mus musculus with 2 samples.

Results

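*Pou5f1*, *Nanog*, *Sox2*, *Klf4*, *Klf2*, *Klf5*, *Esrrb*, *Tbx3*, *Zfp42* and *Prdm14* encode transcription regulators that are used as the core of the pluripotency network of mouse ES cells. They were taken by name, not by their reads, as 10 of the 22359 protein-coding genes annotated on mm9, and all 10 were found in the annotation. The chromatin came from the mouse ES cell line E14, for which the labels give the background strain C57BL/6, and was immunoprecipitated either with anti-ZNF322 antibody against the zinc finger protein Zfp322a or with rabbit IgG as the control. The cells of both libraries were grown in serum with LIF, the cytokine that sustains self-renewal, and no knockdown or other treatment is given. There was 1 library for each antibody, so no value below has a replicate check, and each comparison is between these libraries. ChIP-seq reads carry no expression, so the ES cell label could not be checked against marker genes. The Zfp322a library held 4151151 reads of mapping quality 25 or more out of 5187475, and the IgG library 3877802 out of 4843481. Reads were counted within 1000 bp of every protein-coding TSS of a gene, called its TSS window, and over the gene with 20 kb to either side, called its locus. Fold per read is the ratio of Zfp322a to IgG reads divided by the ratio of the library totals, 1.07, and each interval is an exact 95% interval for counting error only.

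In ES cells, Oct4 (the product of *Pou5f1*) and Sox2 bind DNA side by side at composite elements of an octamer and a Sox site, and together with Nanog they occupy the enhancers of their own genes and of each other. *Klf2*, *Klf4*, *Klf5*, *Esrrb* and *Tbx3* connect this circuit to the signals that keep the cells undifferentiated. *Pou5f1* is read from a proximal promoter and from upstream enhancers, of which the conserved region 4 (CR4) belongs to the distal enhancer that is active in ES cells, whereas the Oct4/Sox2 element of *Nanog* lies just upstream of its TSS.

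The study's primers place the cloned CR4 fragment on mm9 at chr17:35640808-35641100, 293 bp long and outside annotated genes, from -2174 to -1882 bp of the most upstream *Pou5f1* TSS. The stretch before the *Pou5f1* TSS (chr17:35642682-35642981) and the stretch before the *Nanog* TSS (chr6:122657327-122657506) overlap no annotated exon. These 3 sequences are shown, all on the plus strand, because they are the regulatory DNA on which the reads described below do or do not accumulate. In CR4 and *Nanog* the capitals mark the closest match to the Oct4/Sox2 composite, searched on both strands as CNTTGT, any base and ATGCAAAT. In *Pou5f1* they mark GGGCGG, the GC box bound by Sp1 family proteins, and AGGTCA, the core of a nuclear receptor site.

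CR4: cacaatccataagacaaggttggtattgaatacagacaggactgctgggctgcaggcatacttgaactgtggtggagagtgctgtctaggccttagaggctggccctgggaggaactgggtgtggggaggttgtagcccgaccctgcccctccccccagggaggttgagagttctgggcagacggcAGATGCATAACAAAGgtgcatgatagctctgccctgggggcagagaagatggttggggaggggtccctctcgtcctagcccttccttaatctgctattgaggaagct

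*Pou5f1* before the TSS: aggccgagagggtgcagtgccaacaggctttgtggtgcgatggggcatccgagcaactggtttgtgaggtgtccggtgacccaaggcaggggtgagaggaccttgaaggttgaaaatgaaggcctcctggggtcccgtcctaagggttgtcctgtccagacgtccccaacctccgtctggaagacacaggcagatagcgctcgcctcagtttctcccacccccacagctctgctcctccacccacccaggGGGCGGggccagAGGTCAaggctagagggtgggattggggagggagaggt

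*Nanog* before the TSS: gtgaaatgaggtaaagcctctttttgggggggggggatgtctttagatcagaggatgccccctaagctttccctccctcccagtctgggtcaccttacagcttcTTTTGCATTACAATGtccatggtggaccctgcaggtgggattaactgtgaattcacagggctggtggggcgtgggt

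The CR4 match, on the minus strand at 35640994 to 35641008, had 2 mismatches. In the interval at the same distance from the TSS of all 22359 genes, 0.854% held a match at least as close. The *Nanog* match, on the minus strand at 122657431 to 122657445, had 1 mismatch, and 0.0537% of genes held one as close in the same 180 bases. The closest composite before *Pou5f1* had 4 mismatches, which 37.0% of genes reached, so it is not marked. AGGTCA started -38 bp and GGGCGG -50 bp from the *Pou5f1* TSS, and 15.3% and 41.5% of genes held these letters in the 300 bases before the TSS.

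None of the 10 genes had a TSS-window fold of at least 2. Among all 16628 protein-coding genes with at least 10 reads in their windows, which all 10 had, 20.6% reached that fold. Nor did any of them have an interval wholly above 1, against 16.6% of all genes. The interval lay wholly below 1 at *Pou5f1* alone, against 0.854% of all genes, and a fold of at most 0.5 was reached by 0 of 10 against 2.83%. The median fold of the 10 genes was 0.828, with a range of 0.55 to 1.36, and that of all genes was 1.35, with a 5th to 95th percentile of 0.584 to 3.17. Of the 10, 9 lay under the median of all genes. The intervals of 7 genes ended below 2, and for *Klf4*, *Zfp42* and *Prdm14* a fold of 2 lay within the interval.

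**Figure D1:**
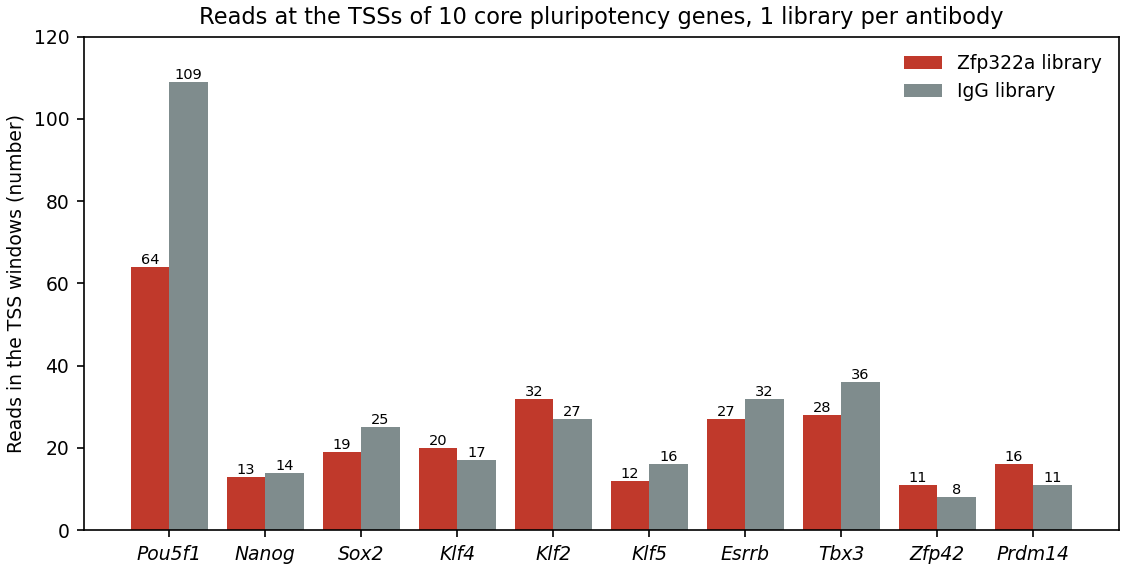
Number of reads of mapping quality 25 or more within 1000 bp of the protein-coding TSSs of each gene, in the Zfp322a library (red) and the IgG library (grey), 1 library each and not scaled to depth. *Pou5f1* had 64 Zfp322a and 109 IgG reads, and each of the other genes had at most 36 in either library.

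*Pou5f1* encodes Oct4, the POU domain factor without which ES cells lose their identity. Its windows held 64 Zfp322a and 109 IgG reads, a fold of 0.55 (0.40 to 0.75). IgG was the higher library, and 99.98% of all genes had fewer IgG reads in their windows. These counts are not divided by length, and the windows of *Pou5f1* covered 5349 bases, against 2001 at a gene with a single TSS such as *Klf5*. The annotation gives *Pou5f1* 7 protein-coding TSSs, and they differed. Within 1000 bp of the most upstream one, at 35642982 on chromosome 17, there were 35 Zfp322a and 90 IgG reads (fold 0.36, 0.24 to 0.54). The one furthest downstream, at 35646330, had 19 and 7 reads (2.54, 1.02 to 7.14). The IgG excess was thus at the upstream TSS, and the internal one was higher in Zfp322a on few reads.

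*Nanog*, a homeodomain factor that can sustain self-renewal without LIF, had 13 Zfp322a and 14 IgG reads (fold 0.87, 0.38 to 1.99). *Sox2*, the HMG box partner of Oct4, had 19 and 25 reads (0.71, 0.37 to 1.34). At both genes the interval included 1, and at *Sox2* it ended just under the median of all genes.

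The Krüppel-like factors bind GC-rich and CACCC sequences and can stand in for each other in self-renewal. *Klf4*, one of the reprogramming factors, had 20 Zfp322a and 17 IgG reads (1.10, 0.55 to 2.23), and *Klf2* had 32 and 27 (1.11, 0.64 to 1.92). *Klf5* had 12 and 16 (0.70, 0.30 to 1.58). The 3 intervals overlap widely, so these reads do not order the family. The folds also depended on the window. *Klf5* had 1.64, the highest of the 3, with 1000 bp before to 100 bp after the TSS, and *Klf4* had 0.73 with 2 kb to either side.

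The orphan nuclear receptor gene *Esrrb* had 27 Zfp322a and 32 IgG reads (0.79, 0.45 to 1.36), summed over windows that differed among themselves. Its TSS at 87762594 on chromosome 12 had 5 and 15 reads (0.31, 0.089 to 0.90), and the upstream one at 87702067 had 8 and 4 (1.87, 0.50 to 8.48). *Tbx3*, a T-box factor, had 28 and 36 reads (0.73, 0.43 to 1.22). At *Esrrb* and *Tbx3* IgG was the higher library before any scaling.

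*Zfp42* encodes Rex1, a zinc finger protein used as a marker of undifferentiated ES cells, and *Prdm14* a PR domain protein that restrains differentiation. *Zfp42* had 11 Zfp322a and 8 IgG reads (1.28, 0.47 to 3.68), and *Prdm14* had 16 and 11 (1.36, 0.59 to 3.24). These were the highest folds of the 10 and rested on the fewest IgG reads. The fold of *Prdm14* turned to 0.56 when the window was cut to 500 bp to either side, so its place depends on the window. In the order of all genes, 45.4% had a lower fold than *Zfp42* and 50.6% a lower fold than *Prdm14*, the middle of the distribution. The other genes ranked lower, from *Pou5f1* with 4.16% of genes below it to *Klf2* with 34.2%. Over all 10 genes 242 Zfp322a and 295 IgG reads gave a fold of 0.77 (0.64 to 0.91). Without *Pou5f1* 178 and 186 reads gave 0.89 (0.72 to 1.10), so the sum fell below 1 beyond counting error through that gene. The same sum over all protein-coding genes was 1.36.

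**Figure D2:**
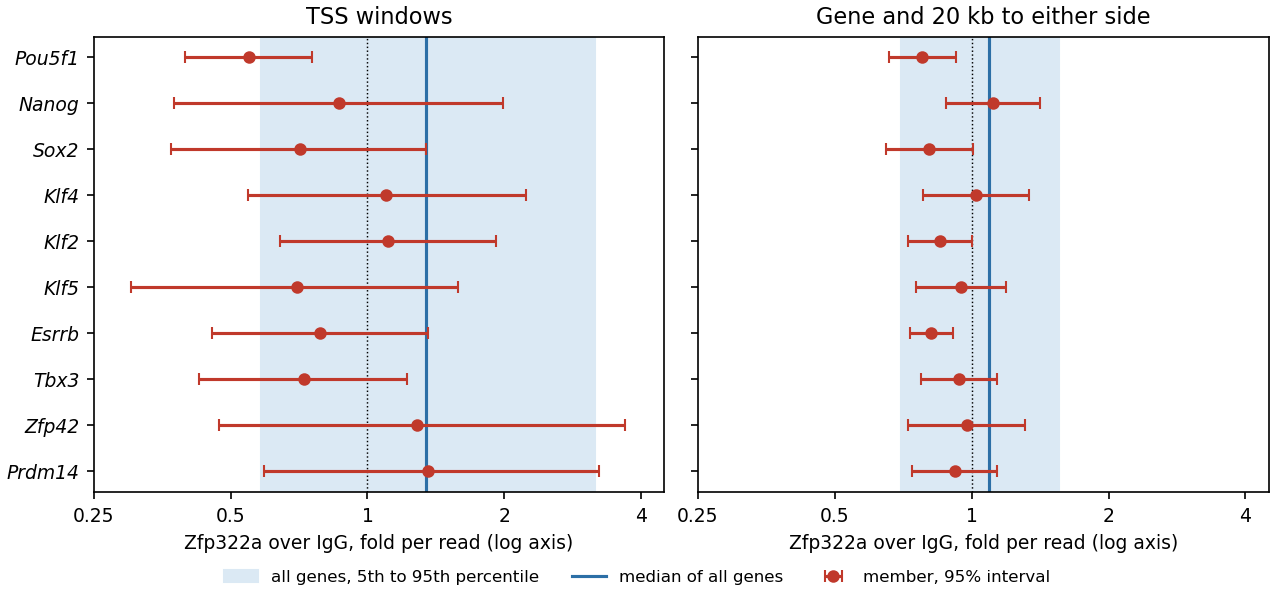
Fold per read of Zfp322a over IgG (log axis) in the TSS windows (left) and over the gene with 20 kb to either side (right); points are the 10 genes with 95% counting intervals, the blue line is the median of all protein-coding genes and the band their 5th to 95th percentile. In the TSS windows 9 of the 10 points lie to the left of the line at 1.35.

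Upstream of *Pou5f1* both libraries had a pair of pile-ups, which together held most of the IgG excess. In the 500 bp before the most upstream TSS, which include the *Pou5f1* sequence shown above, 17 Zfp322a and 65 IgG reads lay wholly inside (fold 0.24, 0.13 to 0.42). Reads extended to 300-bp fragments piled to a height of 14 in the Zfp322a library and 49 in the IgG library. Counted by 5′ ends these bases held 69 IgG reads. Across the genome, 26 of 5309802 bins of 500 bp held at least as many, and the mean was 0.73, so this is among the densest IgG stretches of the library.

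The second pile-up filled CR4. Of the reads wholly inside the fragment 20 were from Zfp322a and 44 from IgG (0.42, 0.24 to 0.74), with heights of 17 and 36. The 44 IgG reads began at 35640812 and ended at 35641099, within the ends of the cloned fragment, and 0 further IgG reads crossed those ends. The Zfp322a reads inside ran from 35640819 to 35641073, and 2 others crossed the ends. Flanks of the same length as the fragment held 1 Zfp322a and 3 IgG reads. IgG density was 150 reads per kb in the fragment and 7.97 per kb in the 1381 bp between CR4 and the 500 bp before the TSS, which held 7 Zfp322a and 11 IgG reads. Both libraries thus dropped to a few reads outside the fragment. The study cloned this fragment into a reporter plasmid, and in these reads such plasmid or amplified DNA cannot be told apart from chromatin. Whether it contributed was not tested, and the folds at CR4, at the amplicon within it and over the *Pou5f1* locus carry that limit. The study also cloned CR1, the conserved region of the *Pou5f1* proximal promoter, and its methods name a *Pou5f1* PP-*Luc* reporter. No primers for either were matched here, so their ends were not set against the pile-up before the TSS. That pile-up, and with it the TSS-window fold of *Pou5f1*, the sum over the 10 genes and the fold around amplicon 4, may carry the same limit, which was not tested.

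No such pile-up was present at *Nanog*. The cloned fragment of its proximal promoter, chr6:122657323-122657728 and thus across the TSS and the composite shown above, held 3 reads in each library, with heights of 3 and 4. The fold was 0.93, and its interval of 0.13 to 6.98 leaves little that could be detected at this depth.

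**Figure D3:**
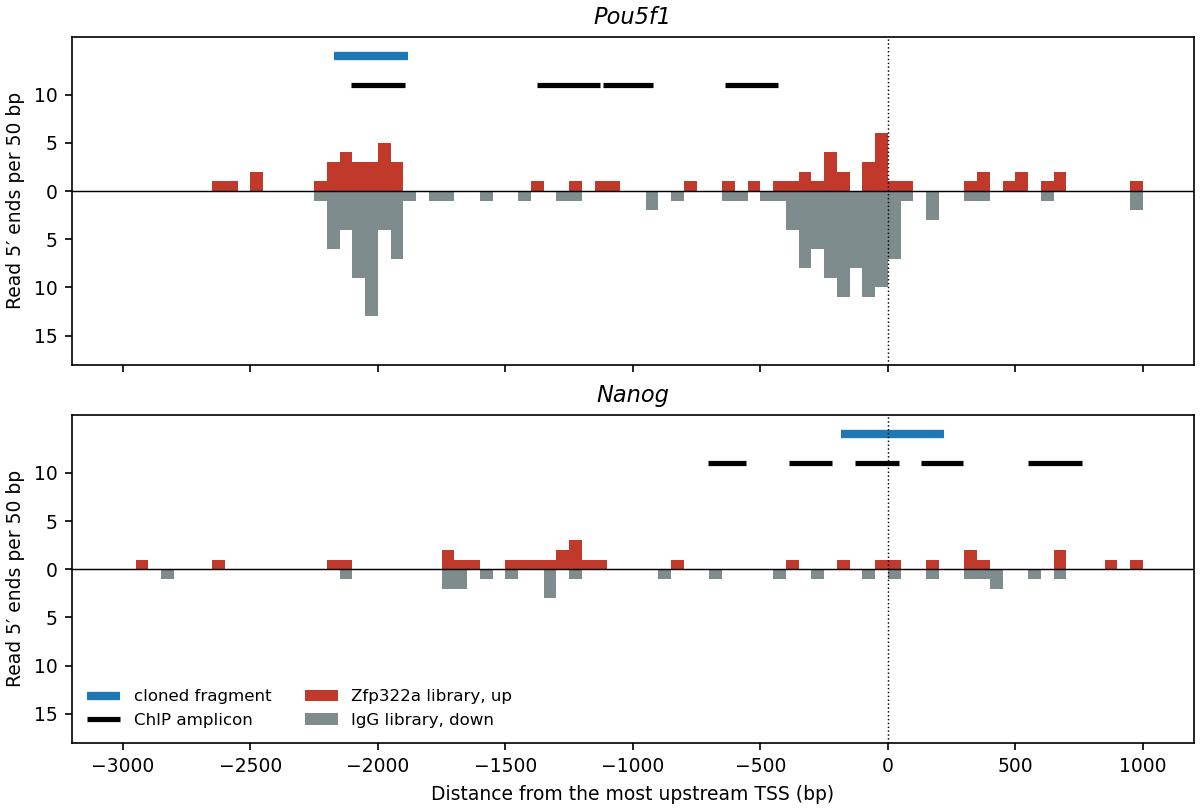
Read 5′ ends per 50 bp against distance from the most upstream TSS of *Pou5f1* (top) and *Nanog* (bottom), Zfp322a library upwards and IgG library downwards; blue bars are the cloned fragments and black bars the study's ChIP amplicons. At *Pou5f1* both libraries gather in CR4 and before the TSS with IgG the larger, and at *Nanog* neither does.

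The study's primers for ChIP also define 4 amplicons at *Pou5f1* and 5 at *Nanog*, each located at 1 place on mm9, and reads were counted on each with 500 bp to either side. Amplicon 1 of *Pou5f1* lies within CR4 and had 25 Zfp322a and 49 IgG reads (0.48, 0.28 to 0.79). Amplicons 2 and 3, between the pile-ups, had 6 and 10 and 7 and 10 reads, with folds of 0.56 and 0.65. Amplicon 4 had 27 and 82 (0.31, 0.19 to 0.48), nearly all from the flank that covers the pile-up before the TSS. On the amplicons' own bases, amplicon 1 had 14 and 33 reads (0.40, 0.20 to 0.76), amplicon 4 had 1 and 2, and amplicons 2 and 3 had 2 and 2 each. Amplicon 1 was thus the one with an IgG excess on its own bases, and too few reads fell on the other 3 to compare the libraries. At *Nanog* the 5 amplicons had 5 to 10 reads in either library and folds of 0.75 to 0.93, with the lowest bound at 0.22 and the highest at 4.06. Neighbouring windows overlap and share reads.

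Over the whole loci, 0 of 10 genes had an interval above 1, against 26.3% of 21638 genes. The interval was below 1 at *Pou5f1* (255 Zfp322a and 306 IgG reads, fold 0.78, 0.66 to 0.92) and at *Esrrb* (645 and 739, 0.82, 0.73 to 0.91), against 7.95% of all genes. Without the reads in the CR4 fragment, the *Pou5f1* locus had 234 and 262 reads (0.83, 0.70 to 0.999), and without those in the 500 bp before the TSS as well it had 214 and 193 (1.04, 0.85 to 1.27), so the IgG excess of the locus lay in the pile-ups. *Nanog* had the highest locus fold, with 157 and 132 reads (1.11, 0.88 to 1.41), and *Klf4* followed with 119 and 109 (1.02, 0.78 to 1.34). The other 8 loci had folds under 1. The median was 0.928 against 1.09 for all genes, a narrower gap than in the TSS windows. With 10 kb to either side *Nanog* and *Klf4* both had 0.92 and *Zfp42* was highest at 1.005, so the order of the loci depends on the span.

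Library composition differed between chromosomes, and this moves with several of these values. Chromosome 8, which carries *Klf2* and *Zfp42*, had 0.76 times as many Zfp322a as IgG reads after scaling, and chromosome 12, which carries *Esrrb*, had 0.86. Scaled by the totals of its own chromosome, the TSS-window fold was 1.46 (0.85 to 2.53) at *Klf2* and 1.69 (0.62 to 4.84) at *Zfp42*, still with 1 inside the interval. The *Esrrb* locus became 0.95 (0.85 to 1.06), so its interval no longer lay below 1, whereas the *Sox2* locus became 0.75 (0.60 to 0.93). The loci of *Zfp42* (1.28, 0.95 to 1.72) and *Klf2* (1.121, 0.95 to 1.32) then lay above that of *Nanog* (1.113), with 1 inside their intervals. *Pou5f1*, on chromosome 17 with 1.04, stayed at 0.53 (0.38 to 0.72) in its TSS windows and 0.75 (0.63 to 0.88) in its locus. Why the chromosome totals differ was not tested.

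The loci were divided into 648 bins of 1 kb, of which 167 had at least 10 reads in both libraries together. A fold of at least 2 was reached by 11 bins (6.59%), against 21.0% of such bins across the genome, and a fold of at most 0.5 by 21 (12.6%), against 9.71%. Of the 11 high bins *Esrrb* had 3, *Pou5f1* and *Klf2* 2 each, and *Sox2*, *Tbx3*, *Klf5* and *Prdm14* 1 each. *Nanog*, *Klf4* and *Zfp42* had 0. Which bins are high depends on where the edges fall. With steps of 1 kb set on the TSS and within 20 kb of it, 10 of 99 tested had a fold of at least 2 and 12 one of at most 0.5. No share across the genome is given for these steps. The step of *Nanog* centred at -12500 bp then had 9 Zfp322a reads and 1 IgG read (8.41, 1.17 to 369). It was the only step with an interval above 1, and 2 steps of *Pou5f1* had an interval below 1. *Zfp42* gave little to test, with 3 bins of at least 10 reads among its 53.

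Of the 167 bins 1 had an interval wholly above 1, against 4.28% of such bins across the genome. It lies in an intron of *Esrrb* at chr12:87736001-87737000, 34434 bp downstream of the upstream TSS, with 9 Zfp322a reads and 1 IgG read (8.41, 1.17 to 369). The next bin along, chr12:87737001-87738000, had 9 and 4 reads (2.10). Both neighbours were higher in Zfp322a, and with a single IgG read the size of the first fold is very uncertain. The bin at -9177 bp from *Tbx3* had 10 and 2 reads (4.67, 0.995 to 43.8), and the bin at -6481 bp from *Pou5f1* had 8 and 2 (3.74, 0.75 to 36.1). The other high bins had folds of 2.06 to 2.80 and intervals that included 1. They lay at 22519 bp from *Pou5f1*, -11426 bp from *Sox2*, -9431 and 2569 bp from *Klf2*, 27591 bp from *Klf5*, 75434 bp from *Esrrb* and 23743 bp from *Prdm14*.

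By gene, 7 of 52 tested bins of *Esrrb*, 4 of 18 of *Tbx3*, 3 of 32 of *Klf2* and 2 of 10 of *Prdm14* were low, and each of the other genes had at most 1. Of the 167 bins 3 had an interval wholly below 1, against 1.06% across the genome. Of these, 2 were at *Pou5f1*, on the pile-ups described above. The bin across the *Pou5f1* TSS had 23 and 76 reads (0.28, 0.17 to 0.46), and the bin that takes in part of CR4 had 20 and 35, with an interval of 0.29 to 0.95. The bin at -5006 bp from *Nanog* had 4 and 13 (0.29, 0.068 to 0.93), in a stretch where enhancers of *Nanog* have been described; with steps set on the TSS, no step of *Nanog* had an interval below 1. The bins just downstream of the TSS of *Sox2*, *Klf5* and *Tbx3*, where the genes begin, were also low, with 8 and 15, 5 and 12, and 3 and 9 reads. The intervals of those 3 bins included 1.

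**Figure D4:**
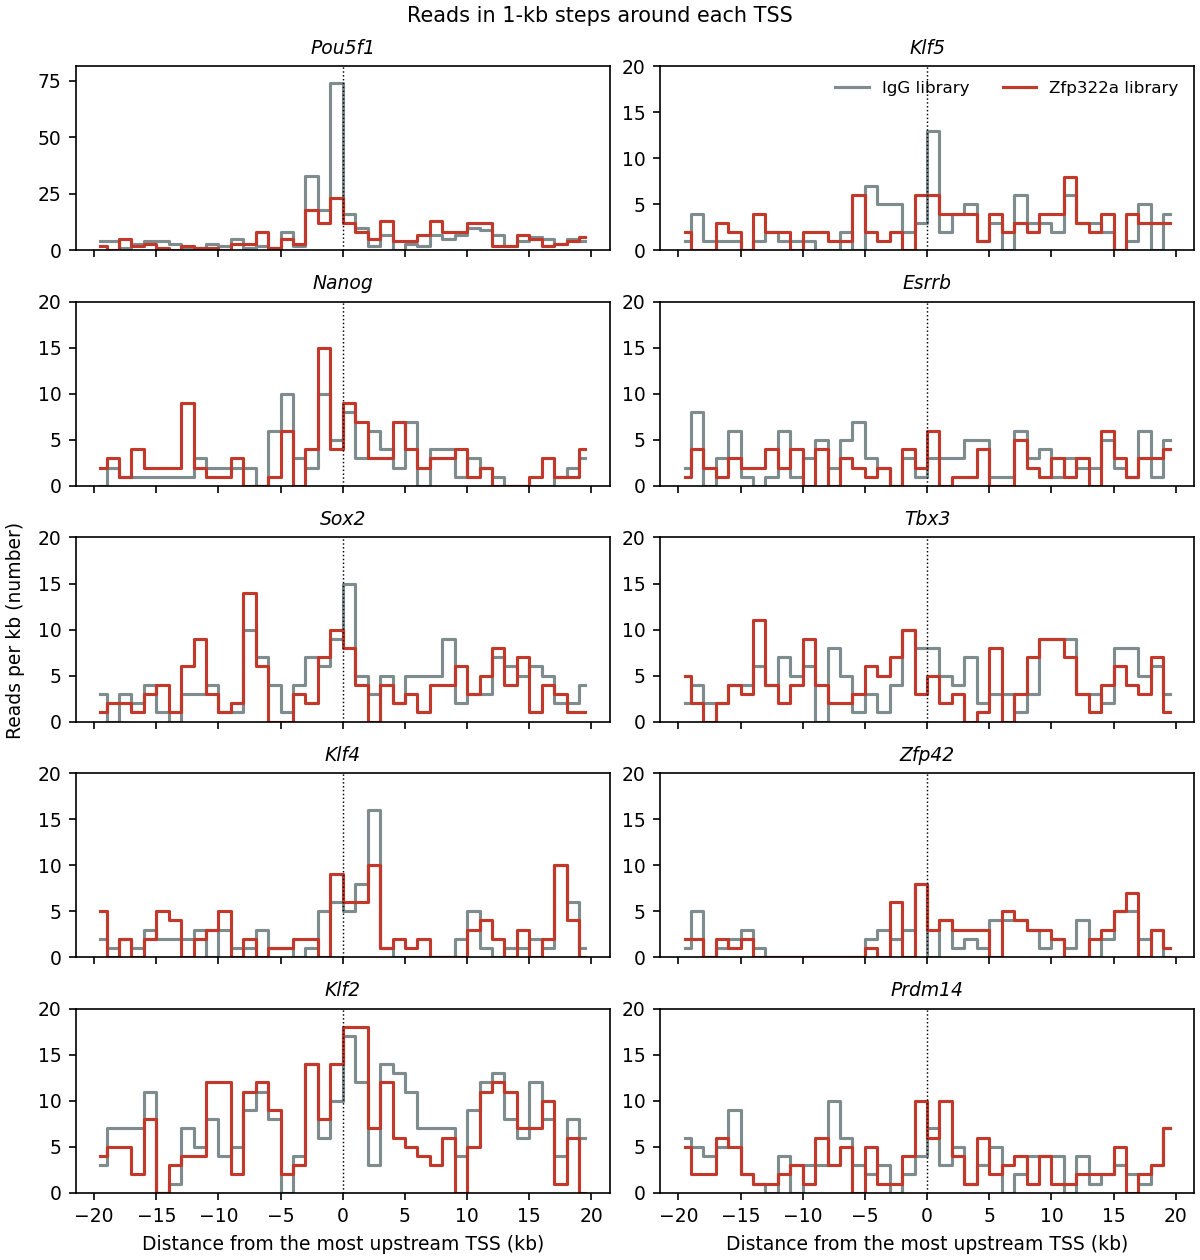
Reads in 1-kb steps (not scaled to depth) against distance from the most upstream TSS of each gene, Zfp322a library red and IgG library grey; *Pou5f1* has an axis of its own because of its counts. The IgG peak of *Pou5f1* just upstream of the TSS is the highest step of the 10 genes, and in the other panels no step of either library reaches 20 reads.

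The study retained peaks on 300-bp fragments where the Zfp322a height reached 9 reads and was 3-fold or more that of IgG. None of the 10 TSS windows met both conditions, against 5.47% of all genes. The heights for Zfp322a and IgG were 14 and 49 at *Pou5f1* and 12 and 8 at *Klf2*. At the other 8 genes the Zfp322a height was 3 to 7, under the minimum. *Nanog* was the lowest of the 10.

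Over the whole loci, continuous stretches with a Zfp322a height of 9 or more were judged by the highest height of each library within them. Such stretches met the conditions at 2 of the 10 genes, against 31.3% of all genes. Judged base by base, *Klf2* also had 21 bases that met them, in a stretch whose highest heights did not. Upstream of *Nanog* there were 2 of them, 73 bp at chr6:122655991-122656063 and 48 bp at chr6:122656094-122656141, centred at -1480 and -1390 bp from the TSS and in no gene. Their heights were 10 Zfp322a against 3 IgG and 9 against 2. In the 1 kb around the first, the libraries held 15 and 10 reads, and the interval of the fold, 0.59 to 3.49, includes 1. The *Esrrb* stretch is 35 bp of an intron at chr12:87823034-87823068, with a height of 9 against 0, and 10 and 7 reads in the 1 kb around it (1.34, 0.46 to 4.13). All 3 stretches sit at or next to the minimum height. None of the 754 distinct regions that the authors deposited lay in the TSS window of any of the 10 genes or in their loci, where 3.24% and 6.69% of all genes had one. These regions are far fewer than the 8008 stretches of the genome that met the conditions here, and fewer than the sites the study counted, so a gene without one may still be on the study's list.

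Coding exons were denser in reads than the rest of the locus at most of these genes, though not at all of them. The density of reads wholly inside coding exons, divided by that in the rest of the locus, had a median over the 10 genes of 2.01 in the Zfp322a and 1.81 in the IgG library. The medians of all genes were 1.13 and 1.07. *Klf4* stood highest, with 13 Zfp322a and 20 IgG coding-exon reads and ratios of 3.71 and 6.81. *Sox2*, whose coding sequence is a single exon, followed with 10 and 16 reads and ratios of 2.91 and 4.13. Both exceeded the 95th percentile of all genes in the IgG library, 3.55, and neither did so in the Zfp322a library, 4.01. Reads that crossed an exon-intron boundary by at least 5 bases on either side were few at every gene, at most 3 Zfp322a and 4 IgG reads, both at *Pou5f1*. At *Klf4* there were 0 and 1 over 8 boundaries.

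In the Zfp322a library *Klf2* and *Prdm14* had the most coding-exon reads, 14 each. *Klf2* had 16 in IgG as well and ratios of 1.97 and 2.06, whereas *Prdm14* had 5 and ratios of 2.71 and 0.90. *Pou5f1*, with 7 and 6 reads, lay at 1.10 and 0.78. The rest of its locus includes the pile-ups, so this ratio does not place them. On 300-bp fragments, a stretch at chr17:35642943-35643049 spans the TSS and overlaps an exon, with heights of 11 Zfp322a and 38 IgG. *Esrrb* had 9 and 5 reads and ratios of 2.05 and 0.98. *Zfp42* had 0 and 2 reads. The source of the coding-exon reads was not tested.

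**Figure D5:**
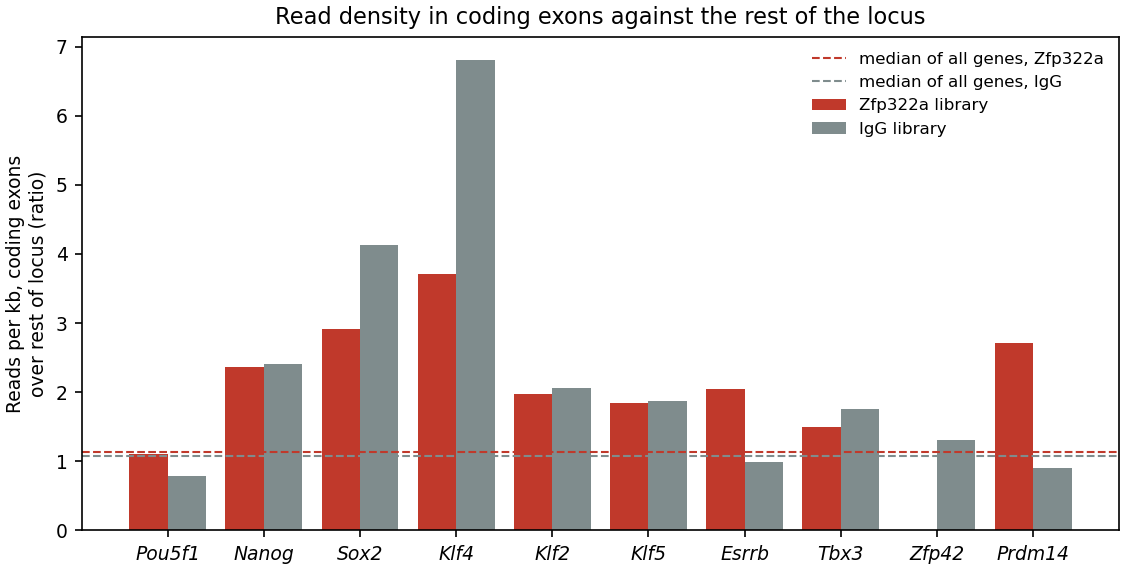
Reads per kb of coding exon divided by reads per kb in the rest of the locus (ratio) for each gene in the Zfp322a (red) and IgG (grey) library; dashed lines are the medians of all genes, 1.13 and 1.07. *Klf4* reaches 6.81 in the IgG library, and *Zfp42* has 0 coding-exon reads in the Zfp322a library.

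The promoters of the 10 genes were mixed in base composition. GC and CpG were taken within 1000 bp of the most upstream TSS, not over all TSS windows of a gene. By GC content 6 were in the highest quintile of all genes, from *Pou5f1* at 58.1% to *Klf2* at 64.8%. *Nanog* (46.6%) and *Zfp42* (44.6%) were in the next to lowest. The ratio of observed to expected CpG was at least 0.6, as in CpG islands, at *Sox2*, *Klf4*, *Klf2*, *Klf5* and *Tbx3*, and 33.9% of all genes reached it. *Pou5f1*, in spite of its GC content, had the lowest ratio of the 10, 0.26. Folds by quintile cover genes with at least 10 reads, which were 801 in the lowest quintile and 4373 in the highest. Their median fold was 1.34 in the highest quintile, also 1.34 in that of *Nanog* and *Zfp42*, and 1.12 in the lowest. From the lowest quintile to the highest, 16.35%, 22.5%, 23.1%, 20.2% and 18.3% of these genes reached a fold of 2, so high folds were present in every quintile.

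Exact matches were searched on both strands within 1000 bp of the most upstream TSS of each gene. The octamer ATGCAAAT, bound by Oct4, was found at *Klf5* and *Zfp42* (9.08% of all genes). The Sox motif CATTGT was found at *Pou5f1*, *Nanog*, *Sox2* and *Esrrb* (55.3%), and at *Nanog* a match lies inside the composite shown above. GGGTGTGG, a Klf motif, was found at *Tbx3* and *Zfp42* (16.8%), and TCAAGGTCA, an Esrrb motif, at none of them (4.19%). Bases of the TSS windows beyond this span, as at *Pou5f1*, *Esrrb* and *Tbx3*, were not searched. No match says only that these letters are absent from the bases searched.

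Among 35 further genes of the ES cell network, all annotated, 32 had at least 10 reads. Of these 4 had a fold of at least 2, against 20.6% of all genes, and 0 of at most 0.5, and the median was 1.28 against 1.35 for all genes. *Zfx*, a zinc finger factor of self-renewal, had 122 Zfp322a and 11 IgG reads (10.4, 5.59 to 21.3). *Stat3*, which carries the LIF signal, had 29 and 9 (3.01, 1.39 to 7.23). *Tcfcp2l1*, a partner of that pathway, had 20 and 8 (2.34, 0.99 to 6.13), and *Trim28*, the corepressor of KRAB zinc finger proteins, 39 and 16 (2.28, 1.24 to 4.37). *Zfx*, *Stat3* and *Tcfcp2l1* also met the height conditions, which 5.47% of all genes did. With *Zfx*, *Stat3*, *Trim28* and *Sall4*, which had 197 and 105 reads (1.75, 1.38 to 2.24), 4 of the 32 had an interval above 1, against 16.6% of all genes. The lowest were *Tdgf1*, a Nodal co-receptor, with 6 and 11 reads (0.51), and *Fbxo15*, a target of Oct4 and Sox2, with 9 and 16 (0.53), and both intervals included 1.

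Of 20 regulators of differentiated lineages, 19 were annotated under these names and all 19 had at least 10 reads. A fold of at least 2, which 20.6% of all genes had, was found at *Foxa1* alone, an endoderm factor, on 7 Zfp322a and 3 IgG reads (2.18, 0.50 to 13.1). *Pax5* of the B cell lineage, *Otx2* of the anterior neural plate and *Gata2* of blood followed with 1.78, 1.75 and 1.64. *Nkx2-5* of the heart (0.53) and *Gata6* of the primitive endoderm (0.67) were lowest. The median was 1.23 against 1.35 for all genes. None of the 19 had an interval wholly above or below 1, against 16.6% and 0.854% of all genes.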

How the data were processed

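The authors sequenced ChIP DNA on the Genome Analyzer IIx and mapped 36-bp reads to mm9; the submitters' processing notes name CASAVA 1.4, BWA and Partek 6.6. The deposited values are mapped reads with a mapping quality score from 0 to 37, together with other deposited positions, the starts of reads in numbered peak regions of the authors. No reads of a library shared 5′ end and strand.

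Reads of mapping quality 25 or more were placed by their 5′ ends, which makes no shift for fragment length, and counted at GENCODE vM1 protein-coding transcripts on the same assembly. TSS windows of a gene were merged. Folds carry exact conditional binomial (Clopper-Pearson) intervals. With 1 library per antibody no p-value was computed. Heights used 300-bp fragments, with IgG not scaled and an IgG height of 0 taken as 1; the strand test of the study was not applied. Cloned fragments and amplicons were located by exact primer matches, for cloning primers from the last 20 bases outwards.

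The members, gene lists and tests were chosen with earlier results of these data known. Named were all 10 core genes, the 4 highest and 2 lowest of each other list, the bins past the threshold in part, and the gene with most coding-exon reads in each library; *Sall4* was added after its values were seen. Alternatives were other qualities, windows, scalings, read placements, transcript sets, read minimums and bin sizes; scaling by chromosome, the sum without *Pou5f1*, the *Pou5f1* locus without its pile-ups, bins set on the TSS and the count of folds of at most 0.5 were added after seeing the data. Counting was tested on simulated data. The versions were pysam 0.24.0, scipy 1.17.1, pandas 2.3.3 and numpy 2.4.6 under Python 3.11.15, with matplotlib 3.10.9 for figures. The study's microarray, qPCR and reporter experiments were not analysed here.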

Additional observations from a re-analysis of the deposited data

How the results depend on the processing

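Under every alternative run for the TSS windows, 0 of the 10 core genes had a fold of at least 2 and 0 had an interval above 1. Of the other summaries over genes or bins, those that moved past their limits were the following. The count of core genes with a fold of at most 0.5, which was 0, became 1 with windows of 500 bp, 1 with windows from 1000 bp before to 100 bp after the TSS, 1 without coding-exon reads and 2 with the most upstream TSS only, where *Pou5f1* had 0.36 and *Tbx3* 0.47. Network genes with a fold of at least 2 fell from 4 to 2 with transcripts of any type. Within its limit, that count rose to 6 with 1000 bp before to 100 bp after the TSS, with at least 5 reads and with scaling by chromosome. The 1 lineage gene was lost, leaving 0, when reads were placed by the middle of the fragment and when at least 20 reads were required. High 1-kb bins changed from 11 to 43 of 406 (10.6%, against 19.7% across the genome) with a minimum of 5 reads and to 5 of 133 (3.76%, against 9.12%) with 5-kb bins. The locus fold of *Pou5f1* turned from 0.78 to 1.12 in the gene body alone, which leaves out the bases upstream of the TSS, and to 1.04 without the reads of both pile-ups. Single TSS-window folds crossed 1 at 7 genes, all with intervals in the reported setting that include 1: *Prdm14* from 1.36 to 0.56 and *Sox2* from 0.71 to 1.17 with 500 bp; *Klf5* from 0.70 to 1.64, *Sox2* to 1.02 and *Zfp42* from 1.28 to 0.93 with 1000 bp before to 100 bp after; *Nanog* from 0.87 to 1.26, *Klf4* from 1.10 to 0.73 and *Zfp42* to 0.93 with 2 kb to either side; and *Esrrb* from 0.79 to 1.87 with the most upstream TSS. In the gene body alone the locus folds of *Sox2*, *Klf4* and *Klf2* were 0.56, 0.78 and 1.24. Scaled by chromosome those of *Klf2*, *Esrrb* and *Zfp42* were 1.12, 0.95 and 1.28. With 10 kb to either side those of *Nanog* and *Klf4* were both 0.92. The cause of the other changes was not tested. No paired analysis was possible because each antibody has 1 library. With 11 to 64 Zfp322a reads per gene, the intervals of *Klf4*, *Zfp42* and *Prdm14* include both 1 and 2, so a fold of 2 could not be told from none there.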
